A study of Mus musculus with 4 samples.

Results

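Regulatory T cells (Tregs) were examined in 4 droplet single-cell 5' RNA libraries of live T cells, sorted from tumour-draining lymph nodes of mice. A barcode counted as a Foxp3-positive cell when it held at least 1 UMI (unique molecular identifier, 1 counted transcript) of Foxp3, no UMI of Cd8a, Cd8b1 or Cd79a, and at least 1 UMI of a T cell receptor complex gene (Cd3e, Cd3d, Cd3g, Trac, Trbc1 or Trbc2). The members were thus chosen by their own Foxp3, CD8, Cd79a and receptor complex UMIs. Barcodes needed 300 genes or more and no more than 10% mitochondrial UMIs, which left 48578, and 778 of these met the rule. WT-CTRL held 203, WT-DOX 174, KO-CTRL 232 and KO-DOX 169. Where 4 values are listed without library names, they keep this order. The comparison cells were the 7780 barcodes that held a Cd4 UMI, no Foxp3 UMI and otherwise met the same rule (2066, 1727, 2314 and 1673).

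All mice carried MC38-OVA tumours, grown from a murine colon carcinoma line that expresses the model antigen ovalbumin. WT-CTRL and WT-DOX came from mice labelled with the genotype Control, and KO-CTRL and KO-DOX from mice labelled PD-L1 knockout, described for the series as a knockout of PD-L1 (gene Cd274) restricted to dendritic cells. CTRL libraries had the control treatment and DOX libraries doxorubicin, an anthracycline chemotherapy drug. The sources used here give neither the Cre driver nor the dose and time of doxorubicin, and neither the age nor the number of the mice. There is 1 library for each group, so the spread between mice is unknown for every difference between groups, and the intervals given cover counting error only.

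Tregs are CD4 T cells that restrain other lymphocytes, and the transcription factor Foxp3, encoded on chromosome X (7573644 to 7595245 on the plus strand, GRCm38), holds them in that state. They consume IL-2 through the receptor chain Il2ra, block co-stimulation through Ctla4 and release or activate inhibitory cytokines such as IL-10 and TGF-beta. In lymph nodes, central Tregs recirculate much like naive T cells, whereas effector Tregs have met antigen, divide and carry receptors for migration into tissues.

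The Foxp3-positive cells carried the other marker genes of Tregs in all 4 libraries. Il2ra stood at 543, 480, 410 and 419 CPM (UMIs of the gene per 1000000 UMIs, both summed over the cells of a library), against 24.8 to 44 CPM in the comparison cells. Ikzf2, which encodes the factor Helios, stood at 967, 903, 1061 and 980 CPM against 124 to 161 CPM. The co-stimulatory receptor Tnfrsf4 (OX40) was at 820, 935, 628 and 848 CPM against 120 to 228 CPM, and Ctla4 at 975, 861, 837 and 785 CPM against 170 to 292 CPM. No level of the Foxp3-positive cells overlapped one of the comparison cells for any of the 4 genes. The share of all genes with levels separated in this way was not counted. Cells with at least 1500 UMIs were thinned to 1500 UMIs. An Il2ra UMI was then found in 42.6%, 37.3%, 35% and 43.8% of such Foxp3-positive cells and in 2.03% to 3.12% of such comparison cells.

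The rule has a sharp edge. The Foxp3-positive cells with a single Foxp3 UMI numbered 111, 108, 154 and 101, and those with 2 or more 92, 66, 78 and 68. The highest count in 1 cell was 13 UMIs. Just outside the rule were 47, 54, 43 and 36 barcodes with Foxp3 and a CD8 gene, of which 20, 17, 22 and 18 held exactly 1 CD8 UMI. A further 1, 3, 1 and 0 barcodes fell out for Cd79a and 1, 3, 7 and 6 for want of a receptor complex UMI. A Cd4 UMI was present in 53.7%, 53.4%, 53% and 53.8% of the Foxp3-positive cells, so an absent UMI of a moderately expressed gene does not mark an absent transcript here. Among the comparison cells, 2.81%, 2.78%, 3.11% and 3.05% held both an Ikzf2 and an Il2ra UMI, compared with 64%, 52.9%, 56.5% and 60.9% of the Foxp3-positive cells.

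Most markers of other cells had few or no UMIs, with Ighm and Cd74 as exceptions. The B cell genes Ms4a1, Igkc, Fcer2a and Cr2 had no UMI in the Foxp3-positive cells of any library. The summed level of the 10 B cell markers, 467 to 541 CPM, was nearly all Ighm (452, 476, 479 and 519 CPM, against 166 to 171 CPM in the comparison cells). Of 14 myeloid and dendritic markers, 9 or 10 were at 0, among them Lyz2, Xcr1, Siglech and Csf1r. Their sum was 615, 638, 338 and 510 CPM, mostly the MHC class II chaperone gene Cd74 (466, 515, 240 and 405 CPM, against 62.8, 80.7, 72.9 and 139 CPM in the comparison cells). The part of other cells' RNA in Cd74 and Ighm was not tested. Of 11 cytotoxic and NK markers, 5 to 7 were at 0 and the sum was 55.7, 65.3, 119 and 197 CPM. Cd274 stood at 124, 111, 131 and 113 CPM in the Foxp3-positive cells. The labelled deletion concerns dendritic cells, so this level does not check the genotype label. A Scrublet doublet score above 0.25 marked 4, 3, 2 and 3 of the Foxp3-positive cells. Of the barcode sequences, 1283 were kept in more than 1 library, but none was a Foxp3-positive cell in more than 1.

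Foxp3-positive cells made up 1.58% (95% exact Clopper-Pearson interval 1.37 to 1.81) of kept barcodes in WT-CTRL and 1.4% (1.2 to 1.62) in WT-DOX. In the knockout libraries they made up 1.79% (1.57 to 2.03) without and 1.63% (1.39 to 1.89) with doxorubicin. Over Foxp3-positive plus comparison cells the share was 8.95% (7.8 to 10.2), 9.15% (7.89 to 10.5), 9.11% (8.02 to 10.3) and 9.17% (7.9 to 10.6). The intervals of the share of kept barcodes overlapped, narrowly for WT-DOX and KO-CTRL, and those of the share of CD4 cells overlapped widely. With 1 library a group no test of a difference in Treg share was possible. The Foxp3-positive cells were deeper than the comparison cells, with median UMI counts of 4150, 4005.5, 4146 and 4280 against 3136.5, 2937, 3143 and 2960. Kept barcodes with at least 1500 UMIs (11466, 11264, 11669 and 9398) were also thinned to 1500 UMIs, and shallower ones were left out. Of the thinned barcodes, 0.907% (0.742 to 1.1), 0.639% (0.5 to 0.804), 0.96% (0.791 to 1.15) and 0.755% (0.59 to 0.952) met the whole rule. A barcode outside the unthinned rule could enter by losing its CD8 UMIs. Over thinned Foxp3-positive plus comparison cells the share was 7.95% (6.54 to 9.55), 6.46% (5.09 to 8.07), 7.88% (6.53 to 9.4) and 6.43% (5.05 to 8.04). Both thinned shares came from 1 random draw and were lower in the DOX libraries than in the CTRL libraries, with overlapping intervals. The unthinned share of CD4 cells was not lower. In a separate draw over the Foxp3-positive cells with at least 1500 UMIs, 43.1%, 51.2%, 45% and 40% kept a Foxp3 UMI. Summed over the cells, each library held 1471989, 1101819, 1568998 and 1195123 UMIs of Foxp3-positive cells.

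The first comparison asked which genes set the Foxp3-positive cells apart from the other CD4 cells of the same library. Receptors for IL-2 and TNF family ligands, suppressive mediators, effector genes and cell cycle genes were higher in the Foxp3-positive cells. Of the resting T cell genes tested 11 of 16 were lower, and the follicular and helper lists held genes that were lower and genes that were higher. UMIs were summed over each cell group of each library and tested with edgeR's quasi-likelihood test, with the library as a block and the genes of the rule left out. A gene was called at a Benjamini-Hochberg adjusted p under 0.05 and a fold of at least 1.5. Of 7991 genes tested, 1012 (12.7%) were higher and 892 (11.2%) lower, and the median log2 difference over all genes was -0.01.

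All 23 identity genes tested were higher, with a median log2 difference of 1.94. The direction of this list is not independent evidence, because its genes are known Treg genes and earlier results of these data were in view. The IL-2 receptor gene Il2ra differed by 3.60 (SE 0.11, edgeR adjusted p = 1.3e-13). Ikzf2 differed by 2.68 (SE 0.06, edgeR adjusted p = 3e-15). Lrrc32 encodes GARP, which holds latent TGF-beta on the cell surface. Its level was 61.8, 64.4, 76.5 and 54.4 CPM in the 4 libraries against 3.88, 3.95, 6.56 and 4.6 CPM, a log2 difference of 3.66. Itgae, the CD103 chain that binds E-cadherin on epithelium, was at 205, 178, 126 and 160 CPM against 8.88 to 14.1 CPM, a difference of 3.77. Entpd1, whose product CD39 breaks down extracellular ATP, was at 52.3, 58.1, 47.2 and 38.5 CPM against 6.25 to 9.19 CPM. The smallest identity difference was that of Nrp1, with 40.8, 64.4, 75.2 and 54.4 CPM against 32 to 40.5 CPM. For Nrp1 the highest comparison level lies just under the lowest level of the Foxp3-positive cells.

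**Figure D1:**
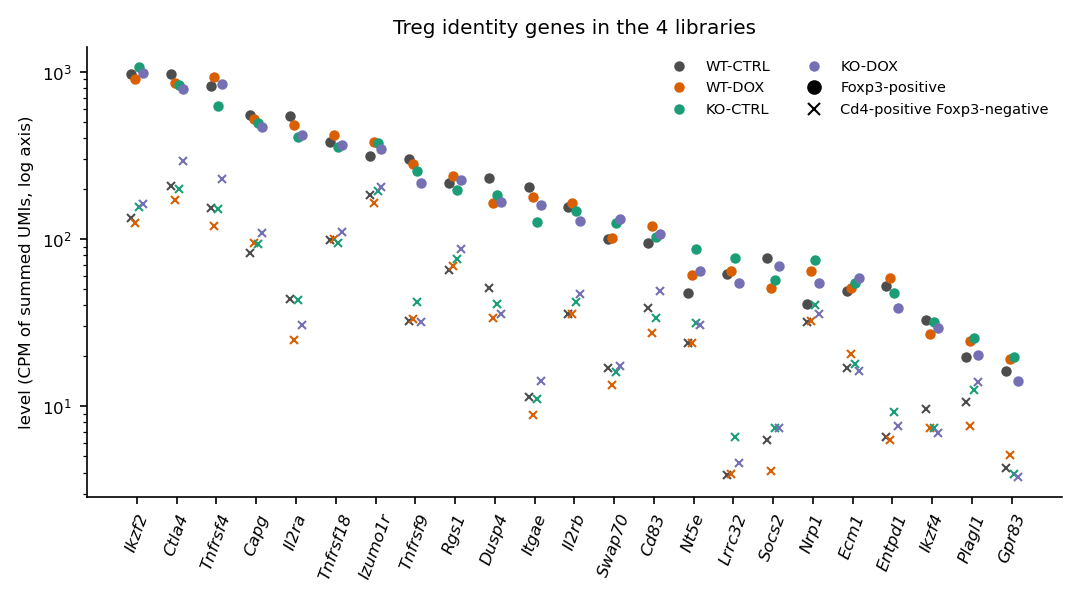
Levels of 23 Treg identity genes in CPM of summed UMIs on a log axis, 1 point for each library (colour), circles for Foxp3-positive cells and crosses for Cd4-positive Foxp3-negative cells. Ikzf2 lies between 903 and 1061 CPM in the Foxp3-positive cells and between 124 and 161 CPM in the comparison cells.

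Of 13 suppressive mediators tested, 12 were higher and 0 lower (median 1.98). Gzmb, which encodes the protease granzyme B, stood at 484, 296, 127 and 126 CPM against 9.63 to 16.3 CPM, a log2 difference of 4.19 (SE 0.25). Its level varied widely between the libraries, and all 4 lay above every level of the comparison cells. The effector list had 21 of 25 higher and 0 lower (median 1.68). Klrg1, a receptor of terminally differentiated effector T cells, differed by 4.77 (SE 0.22, edgeR adjusted p = 1.3e-11), the largest positive difference of all genes tested. The chemokine receptor Ccr2 was at 152, 88, 70.1 and 106 CPM against 5.75 to 12.3 CPM. Of 12 tissue repair genes, 10 were higher (median 1.56), among them Il1rl1, the IL-33 receptor, at 23.1, 26.3, 10.2 and 25.1 CPM against 0.986 to 1.75 CPM.

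The TNF receptor genes called were all higher (Tnfrsf9, Tnfrsf1b, Tnfrsf4 and Tnfrsf18). Tnfrsf9 (4-1BB) was at 301, 282, 254 and 216 CPM against 31.7 to 41.7 CPM, and Tnfrsf1b, the TNF receptor that favours Treg growth, at 101, 127, 102 and 102 CPM against 17.6 to 20.8 CPM. The ligand gene Cd40lg, by which helper T cells activate B cells, was lower, at 34, 26.3, 30.6 and 11.7 CPM against 144 to 174 CPM. In the whole list of TNF receptor and co-stimulation genes, 6 of 15 were higher and 2 lower. Interferon gamma targets were higher in 9 of 26 and lower in 0, led by the GTPase genes Gbp3 (log2 difference 2.58) and Gbp7 (1.57). The type I interferon list had 4 higher and 6 lower of 33, with a median of -0.03.

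Among the 892 lower genes were members of the resting, helper and follicular lists, and 8 of 11 mitochondrially encoded genes. Mitochondrial transcripts were scarce in both groups. The 13 genes summed to 446, 576, 448 and 447 CPM, against 842, 858, 819 and 597 CPM. The median mitochondrial share of UMIs in the Foxp3-positive cells was 0.0271%, 0.0271%, 0.0233% and 0.016%, far under the 10% limit. The central or resting list had 0 of 16 higher and 11 lower (median -1.12). Tcf7, a factor of naive and memory T cells, stood at 133, 169, 158 and 124 CPM against 792 to 835 CPM. Igfbp4 was at 44.2, 67.2, 44 and 25.9 CPM against 300 to 473 CPM. The lymph node homing receptor Ccr7 was at 191, 197, 190 and 225 CPM against 442 to 513 CPM. Among helper genes 5 of 9 were lower and 2 higher. Il21 had 0 to 1.36 CPM against 30.9 to 56.4 CPM, and Il4 0 to 6.11 CPM against 15.3 to 23.3 CPM. Sostdc1 had the largest negative difference of all genes tested, with 0 to 0.837 CPM against 58.5, 59.3, 97.7 and 171 CPM. Of 13 follicular regulatory genes, 5 were lower, including Sostdc1 and the factor Tox2 (-2.47), and 3 higher, including the IL-1 decoy receptor Il1r2 (1.77) and the factor Maf (1.36). The immediate early gene Jun was also lower (-1.08).

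Cell cycle genes were higher almost throughout. In the G2 and M phase list 35 of 36 were higher (median 1.68), and in the S phase list 29 of 32 (median 1.26). Mki67, a protein of dividing cells, stood at 524, 380, 467 and 413 CPM against 74.8 to 121 CPM, and Rrm2, which supplies deoxynucleotides, at 270, 327, 248 and 249 CPM against 42 to 73 CPM. A Mki67 or Top2a UMI was present in 29.1%, 34.5%, 31% and 32% of the Foxp3-positive cells and in 9.2%, 6.77%, 9.08% and 9.56% of the comparison cells. Those cells supplied 60.5%, 62.7%, 63.8% and 61.7% of all UMIs of the Foxp3-positive cells. Left out of both groups, they took the calls in the 2 cell cycle lists to 0 and 1. Mki67 and Top2a belong to the G2 and M phase list, so the fall in that list followed from the choice of cells. The glycolysis calls went from 9 to 1 of 17, and the counts over all genes to 708 higher and 484 lower. Without dividing cells all 23 identity genes, 13 suppressive mediators (12 with them) and 10 tissue repair genes were higher. Bcl2, which encodes a survival factor, turned from -0.61 to 0.32. Deeper cells are more likely to show a Foxp3 UMI. The part that this has in the cell cycle counts was not tested.

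Foxp3-positive cells fell into an effector-rich and an effector-poor set. For each cell the UMIs of the effector list were expressed as a percent of the UMIs of the effector and central lists together, a score whose genes are no finding between the sets. The median share was 62.6%, 62.5%, 59.6% and 68%. At or over 50% were 58.1% (exact 95% interval 51 to 65), 59.8% (52.1 to 67.1), 54.7% (48.1 to 61.3) and 68.6% (61.1 to 75.5) of the cells, and 15.6%, 14.1%, 17.1% and 22.2% of the comparison cells. Between 40% and 60% lay 18, 23, 28 and 22 Foxp3-positive cells, so the sets are ranges of a score and not cell types. The intervals of KO-DOX (from 61.1) and KO-CTRL (to 61.3) overlap narrowly, and the comparison cells were also highest in KO-DOX.

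**Figure D2:**
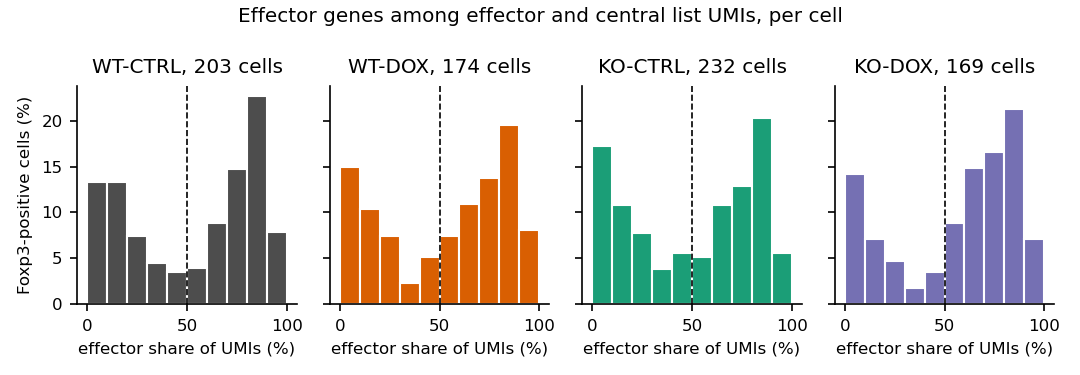
Histogram of the effector share of UMIs in each Foxp3-positive cell (percent of effector plus central list UMIs, x axis) against the percent of cells of the library (y axis), 1 panel for each library, with the dashed line at 50%. Each panel has a low and a high peak with fewer cells between, and 54.7% to 68.6% of cells lie at or right of the line.

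The effector-rich cells were deeper and more often dividing. Their median UMI count was 6029, 5834, 5434 and 5046.5, against 3069, 2833, 2809 and 2812 in the effector-poor cells. A Mki67 or Top2a UMI was found in 44.1%, 51%, 49.6% and 44% of them, against 8.24%, 10%, 8.57% and 5.66%. They supplied 76.7%, 80%, 76.5% and 82.5% of all UMIs of the Foxp3-positive cells, so the summed levels of a library mostly describe the effector-rich cells.

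Identity genes outside the 2 scoring lists did not follow 1 pattern across the sets. Ikzf2 was higher in the effector-rich cells of all 4 libraries, at 1095, 1037, 1154 and 1070 CPM against 546, 368, 760 and 555 CPM. Il2ra was also higher in the effector-rich cells of each library, by less, at 567, 524, 436 and 425 CPM against 464, 304, 328 and 392 CPM (log2 difference 0.11 to 0.78). Gpr83, a receptor gene enriched in Tregs, was higher in the effector-poor cells, at 61.3, 54.5, 73.3 and 57.4 CPM against 2.66, 10.2, 3.33 and 5.07 CPM. Ecm1 was at 96.3, 81.7, 133 and 158 CPM in the effector-poor cells against 34.5, 43.1, 30.8 and 37.5 CPM, and Lrrc32 at 84.7, 118, 128 and 86.1 CPM against 54.9, 51, 60.8 and 47.7 CPM. Gpr83 rests on 3 to 27 UMIs in each set of a library. These genes were chosen after their values were seen, and the share of all genes that differ as much between the sets was not counted. Whether these orders are particular to Tregs was not tested. Foxp3 was at 212, 204, 194 and 202 CPM in the effector-rich and 350, 445, 369 and 330 CPM in the effector-poor cells. Every member holds a Foxp3 UMI by the rule, and 1 UMI weighs more in a shallow cell, so this order is no finding. These are descriptions with no test, since the score came from the same cells.

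**Figure D3:**
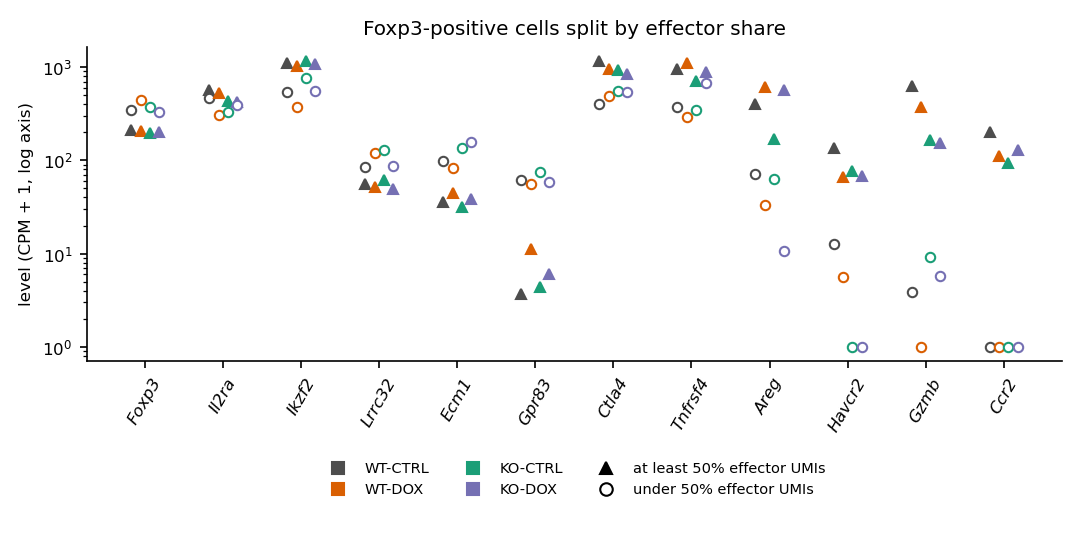
Levels (CPM + 1, log axis) of 12 genes in effector-rich cells (filled triangles, at least 50% effector UMIs) and effector-poor cells (open circles) of the Foxp3-positive cells, 1 colour for each library. Gpr83, Ecm1 and Lrrc32 lie higher in the effector-poor cells of all 4 libraries, while Ikzf2 lies higher in the effector-rich cells. Gzmb and Ccr2 belong to the list that defines the sets.

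Testing effector-poor Foxp3-positive cells against effector-poor comparison cells with edgeR gave 319 genes higher and 203 lower, with all 23 identity genes higher. Between effector-rich cells the counts were 574 and 554, with 17 identity genes higher and 1 lower. The lower one was Nrp1 (-0.61). The cells were split by effector and central list UMIs of these same cells, and the identity genes Itgae and Tnfrsf9 are also effector list members. The counts are therefore descriptions and no independent evidence on the identity genes.

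For the comparisons between libraries the summed UMIs gave a CPM for each gene, with an exact Poisson 95% interval, and the log2 fold is that of CPM + 1. A gene is said to pass the fold when it differs by at least 1.5-fold among 5117 genes with a mean of at least 30 CPM. The mean is that of the Foxp3-positive cells over the 4 libraries, and the comparison cells were counted over the same genes. No p is given. Each library enters 2 of the 4 comparisons, so these share libraries and are not independent of each other. Median log2 folds over all genes were between -0.02 and 0.00.

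WT-DOX against WT-CTRL asked how doxorubicin-treated and control-treated mice of the control genotype differ in their Tregs. Targets of p53, the factor that responds to DNA damage, were higher in the WT-DOX cells, together with the epidermal growth factor family gene Areg and Penk. Lower in WT-DOX were Gzmb, receptors for migration and mitotic genes. Of all genes 109 (2.13%) passed the fold upwards and 126 (2.46%) downwards.

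Of 22 p53 targets measured, 6 were higher and 0 lower (median 0.23), while 2 were higher in the comparison cells (median 0.05). The 22 passed the level filter in the Foxp3-positive cells, which left out Bbc3, chosen here after its values were seen. In the comparison cells Bbc3 stood at 48.2 CPM in WT-DOX against 18.8 CPM in WT-CTRL. In the Foxp3-positive cells it stood at 24.5 against 12.9 CPM. Ccng1, which encodes cyclin G1, stood at 349 CPM in WT-DOX and 152 CPM in WT-CTRL, and at 244 and 151 CPM in KO-DOX and KO-CTRL. The WT-DOX level was 2.3-fold that of WT-CTRL (95% counting interval 1.94 to 2.72), against a log2 fold of 0.26 in the comparison cells. Cdkn1a, which encodes the cell cycle inhibitor p21, was at 49.6, 111, 40.8 and 51 CPM in the 4 libraries, so WT-DOX stood apart from the other 3. The comparison cells had 22.2 against 11.6 CPM of Cdkn1a. Bax, a trigger of mitochondrial cell death, was at 132, 260, 133 and 190 CPM. One WT-DOX cell held 61 UMIs of Ccng1. Without the top cell of each library Ccng1 had a log2 fold of 1.03, against 1.19 with it. The list depended on dividing cells: without them 2 of 23 targets passed the fold upwards and 1 downwards, where 6.21% of all genes passed upwards, and the log2 folds were 0.37 for Ccng1, 0.65 for Cdkn1a and 0.33 for Bax. With each cell given the same weight 3 of 23 passed. Of all 5160 genes 202 passed upwards and 230 downwards at that weight.

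Areg, a growth factor of tissue repair, was at 325, 495, 142 and 469 CPM in the 4 libraries, higher in both DOX libraries. A UMI of Areg was found in 33%, 29.3%, 26.7% and 36.1% of the cells, and in 18.8%, 19.3%, 14.5% and 25% after thinning. The fold was 1.52 (1.34 to 1.73) between the WT libraries, and the comparison cells had 49.8 and 50.1 CPM. With effector-rich and effector-poor cells given equal weight the log2 fold of Areg was 0.44, under the threshold. Penk, which encodes the opioid precursor proenkephalin, was at 57.1, 162, 93.7 and 157 CPM, but only 8, 10, 17 and 14 cells held a UMI of it and 70 UMIs lay in 1 WT-DOX cell. Itgb8, an integrin chain that activates TGF-beta, stood at 61.7 against 34 CPM in WT-DOX and WT-CTRL. Of 22 identity genes, 1 was higher (Nrp1, 64.4 against 40.8 CPM) and 1 lower (Socs2, 50.8 against 76.8 CPM). Tbc1d4, a regulator of vesicle traffic, was at 74.4 against 31.3 CPM and the cytokine gene Tnf at 88 against 48.2 CPM.

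**Figure D4:**
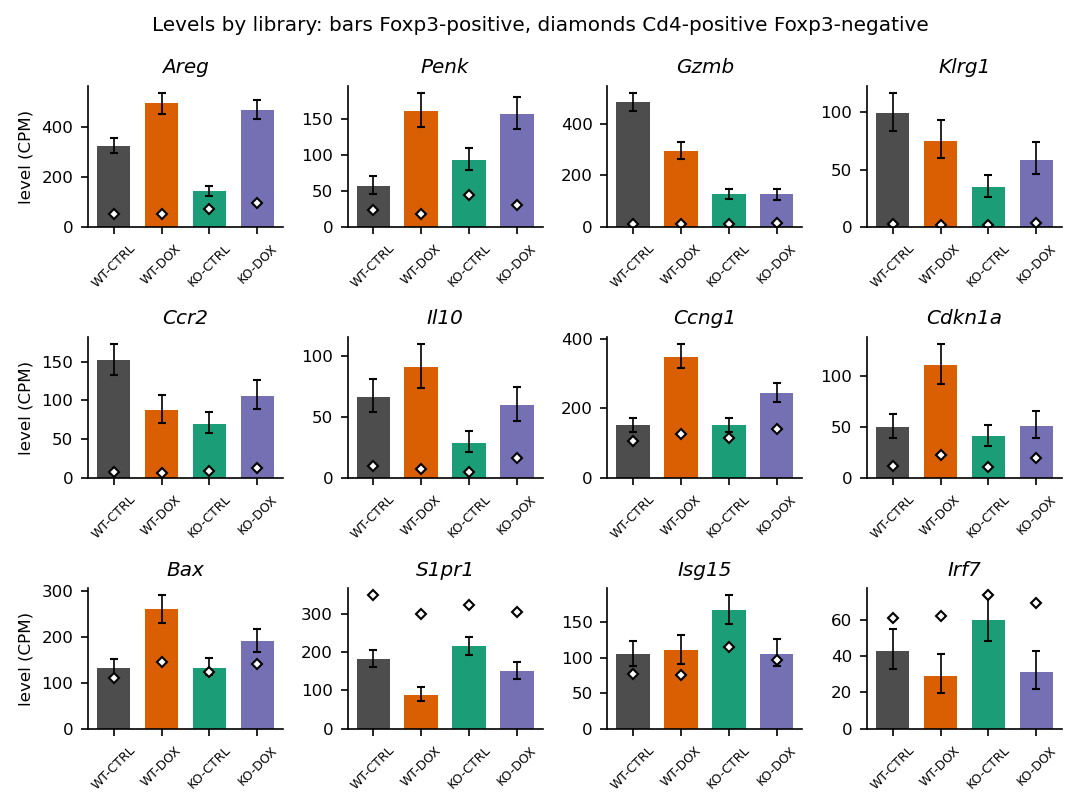
Levels in CPM of 12 genes in the Foxp3-positive cells of each library (bars, with exact Poisson 95% intervals) and in the Cd4-positive Foxp3-negative cells (diamonds). Areg and Ccng1 are higher in both DOX libraries than in the CTRL library of the same genotype label, and Gzmb is highest in WT-CTRL at 484 CPM.

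Migration genes were lower in 3 of 16 (median -0.20). S1pr1, the receptor by which T cells leave lymph nodes, stood at 88.9 CPM in WT-DOX against 181 CPM in WT-CTRL, a ratio of 0.49 (0.385 to 0.62), and at 150 and 215 CPM in KO-DOX and KO-CTRL. Ccr2 was at 88 against 152 CPM. In the comparison cells the log2 folds were -0.22 for S1pr1 and -0.25 for Ccr2. Gzmb stood at 296 against 484 CPM, with 133 UMIs in 1 WT-CTRL cell, and was at -0.10 on the log2 scale without dividing cells. The inhibitory receptor Havcr2 was at 53.5 against 107 CPM. Of 35 G2 and M phase genes, 10 were lower and 0 higher (median -0.43), among them Ccnb1 at 23.6 against 51.6 CPM and Bub1b at 18.2 against 38.7 CPM. The S phase list had a median of -0.01. Cells with a Mki67 or Top2a UMI made up 34.5% in WT-DOX and 29.1% in WT-CTRL. Without them 7 genes of the list were measured, with 0 past the fold downwards. Mki67 and Top2a are themselves members of the G2 and M phase list, so this count is no evidence on the list. The log2 fold of S1pr1 was -0.54 without dividing cells.

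KO-DOX against KO-CTRL set the same treatment in mice with the knockout label. Tissue repair and effector genes were higher in KO-DOX, led by Areg, and 5 type I interferon genes were lower. Of all genes 133 (2.6%) passed the fold upwards and 102 (1.99%) downwards.

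Of 10 tissue repair genes measured, 4 were higher and 0 lower (median 0.50, against 0.43 in the comparison cells). Areg stood at 469 CPM in KO-DOX against 142 CPM in KO-CTRL, a 3.3-fold difference (2.82 to 3.87), and at 95.6 against 70.9 CPM in the comparison cells. One KO-DOX cell held 104 UMIs, and without the top cells the log2 fold of Areg was 1.53, compared with 1.71. Penk was at 157 against 93.7 CPM, and its log2 fold turned from 0.74 to -0.70 among cells with at least 2 Foxp3 UMIs. Of 24 effector genes, 7 were higher and 0 lower (median 0.29). The comparison cells had 4 higher and a median of 0.34. The suppressive cytokine gene Il10 was at 59.4 against 28.7 CPM, Ebi3, which encodes a subunit of IL-35, at 63.6 against 37 CPM, and Klrg1 at 58.6 against 34.4 CPM. The chemokine receptor Ccr8, carried by tissue Tregs, stood at 159 against 99.4 CPM and at 174 against 118 CPM in WT-DOX and WT-CTRL. Lmna, which encodes lamin A, was at 48.5 against 17.2 CPM. With effector-rich and effector-poor cells given equal weight, 2 of the 24 effector genes passed the fold. Of all 5077 genes 215 then passed upwards and 170 downwards. The larger share of effector-rich cells in KO-DOX is given above. Il7r, the IL-7 receptor chain of resting cells, was higher as well, at 248 against 152 CPM and at 231 against 157 CPM in the WT libraries.

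The p53 targets had 2 of 22 higher (median 0.16), Ccng1 at 244 against 151 CPM and Ddit4 at 110 against 69.5 CPM. The histone gene H2afx was at 289 against 169 CPM, with 124 UMIs in 1 KO-DOX cell, and had a log2 fold of 0.25 without the top cells. In the S phase list 3 of 30 were higher (median 0.24), among them the replication licensing gene Cdc6 (41 against 22.9 CPM) and Dtl (78.7 against 45.9 CPM). In the G2 and M phase list 2 of 35 were lower, Bub1 and Kif20a. Pdcd1, the gene of PD-1 (to which PD-L1 binds), was at 25.1, 39.9, 31.2 and 48.5 CPM in the 4 libraries. Both DOX libraries had the higher levels. A UMI was found in 25, 19, 30 and 31 cells (12.3%, 10.9%, 12.9% and 18.3%), a smaller share in WT-DOX than in WT-CTRL. After thinning 5, 7, 2 and 9 cells held one. Lower in KO-DOX were the kinase gene Camk1d (586 against 1252 CPM), Il31ra (54.4 against 127 CPM), the RNA-editing enzyme gene Adar (17.6 against 38.2 CPM), the immediate early gene Egr1 (32.6 against 53.5 CPM) and the inhibitory receptor gene Vsir (33.5 against 52.9 CPM). In the comparison cells the log2 folds of these 5 genes were between -0.31 and 0.09. Without dividing cells the log2 fold of Camk1d was -0.12.

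Type I interferon signals through a factor that contains STAT2 and IRF9 to a response element in the promoters of its target genes, which encode antiviral proteins and amplifiers such as Irf7. Of 27 targets measured, 5 were lower in KO-DOX than in KO-CTRL and 0 higher (median -0.33, against -0.13 in the comparison cells). Irf7, which encodes a factor that amplifies interferon production, stood at 42.8, 29, 59.9 and 31 CPM in the 4 libraries. Stat2, a subunit of the factor that binds the response element, was at 40.8, 49, 56.1 and 31 CPM. The other 3 lie outside the rule for named genes and were chosen after their values were seen. The ubiquitin-like modifier gene Isg15 was at 105, 110, 167 and 105 CPM, Xaf1 at 49.6, 36.3, 57.4 and 32.6 CPM and Slfn5 at 59.1, 49.9, 72.7 and 47.7 CPM. KO-CTRL was the highest library for all 5. Ifit3, also chosen after its values were seen and below the level filter, had 14, 9, 52 and 6 UMIs in 10, 5, 14 and 5 cells.

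The interferon difference depended on which cells entered. Without dividing cells 26 of 31 targets were lower, where 6.84% of all genes were, with a median of -0.71. With each cell given the same weight 11 of 27 were lower, where 191 of 5160 genes were. Among cells with at least 2 Foxp3 UMIs 0 of 26 were lower, 2 were higher and the median was 0.00. Of all 5046 genes 260 were lower and 250 higher in those cells. The libraries then held 68 to 92 cells each.

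The promoters of the 5 lower interferon genes were searched because these genes passed the fold in KO-DOX against KO-CTRL. The letters GAAANNGAAA, the core of the interferon response element, were searched on both strands in the 250 bases before the start site of each gene (RefSeq, GRCm38.p6). They occur in 936 of 27025 promoters (3.46%), in 156 of 4107 measured genes (3.8%), in 10 of 22 measured interferon targets with a promoter (45.5%) and in 3 of the 5 lower genes. No match lies in this window of Irf7 or Xaf1. Stretches around the matches follow, 5' to 3' on the strand of the gene, with the matched letters, or their complement on the other strand, in capitals. They are chr4:156200825-156200946 (minus strand) for Isg15, chr10:128270248-128270335 (plus) for Stat2, chr11:82951897-82952006 (plus) for Slfn5 and chr19:34583323-34583466 (plus) for Ifit3.
Isg15: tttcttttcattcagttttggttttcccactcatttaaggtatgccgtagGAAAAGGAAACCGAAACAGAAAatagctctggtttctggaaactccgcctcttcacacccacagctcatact
Stat2: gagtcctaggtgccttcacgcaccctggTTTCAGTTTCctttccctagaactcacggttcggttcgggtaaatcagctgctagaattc
Slfn5: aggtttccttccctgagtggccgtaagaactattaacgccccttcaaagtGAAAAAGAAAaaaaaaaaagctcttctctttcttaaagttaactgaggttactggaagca
Ifit3: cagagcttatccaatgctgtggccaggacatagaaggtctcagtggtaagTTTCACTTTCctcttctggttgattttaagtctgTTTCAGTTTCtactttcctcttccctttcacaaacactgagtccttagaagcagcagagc
Isg15 holds 3 overlapping matches on the gene's own strand and Ifit3 2 matches on the opposite strand. Stat2 has 1 match on the opposite strand and Slfn5 1 on its own. A match is a description of these letters and not evidence of binding.

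KO-CTRL against WT-CTRL compared the genotype labels without doxorubicin. Of the effector genes 6 were lower in the KO-CTRL cells, led by Gzmb and Klrg1, and so was the tissue repair gene Areg, while Tbc1d4 was higher. Of all genes 77 (1.5%) passed the fold upwards and 93 (1.82%) downwards.

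Of 24 effector genes, 6 were lower and 2 higher (median -0.32), while in the comparison cells 1 was lower and the median was -0.02. Gzmb stood at 127 CPM in KO-CTRL against 484 CPM in WT-CTRL, a ratio of 0.262 (0.223 to 0.307). It had a UMI in 27 and 54 cells, so fewer cells held the transcript as well. Klrg1 was at 34.4 against 99.2 CPM, a ratio of 0.347 (0.249 to 0.477), and at 1.97 against 2.25 CPM in the comparison cells. Areg was at 142 against 325 CPM, a ratio of 0.438 (0.372 to 0.514), found in 62 and 67 cells. Areg belongs to the tissue repair list, in which 2 of 10 were lower (Areg and Klrg1), 1 was higher (Penk) and the median was -0.17. Il10 was at 28.7 against 66.6 CPM, Ccr2 at 70.1 against 152 CPM, Itgae at 126 against 205 CPM and the calcium-binding protein gene S100a4 at 175 against 366 CPM. Havcr2 stood at 57.4 against 107 CPM and Lmna at 17.2 against 48.9 CPM. The higher effector genes were the chemokine receptor Cxcr3 (85.4 against 52.3 CPM) and the integrin chain Itgb1 (352 against 217 CPM).

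The 6 lower effector genes, Areg, Havcr2 and Lmna kept their direction under every alternative run for this comparison. Each alternative had 6 to 9 lower effector list members. Of all genes 93 of 5117 were lower in the main run and 330 of 5088 without dividing cells. The log2 fold of Gzmb ranged from -2.33 to -1.10 and that of Areg from -1.21 to -0.85. Without dividing cells the folds of Il10 (-0.39), Itgae (-0.27) and Havcr2 (-0.33) no longer passed. WT-CTRL and KO-CTRL had effector-rich shares with overlapping intervals, and with both sets given equal weight Gzmb was at -1.87.

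Tbc1d4 stood at 31.3, 74.4, 126 and 100 CPM in the 4 libraries, so WT-CTRL was the low library. Its KO-CTRL level was 4.04-fold that of WT-CTRL (2.92 to 5.69), while the comparison cells had 187 against 172 CPM. Of 22 identity genes 2 were higher and 1, Itgae, was lower (median -0.08). Nt5e, whose product CD73 makes adenosine from AMP, was at 87.3 against 47.6 CPM and Nrp1 at 75.2 against 40.8 CPM. Of 27 type I interferon genes 2 were higher, Isg15 (167 against 105 CPM) and Ifih1 (42.7 against 25.1 CPM), with a median of 0.18 against 0.20 in the comparison cells. Among cells with at least 2 Foxp3 UMIs that median was -0.27. The interferon gamma target Iigp1 was at 86.7 against 49.6 CPM. The cytotoxic granule gene Nkg7 stood at 106 against 38 CPM, but 57 UMIs lay in 1 KO-CTRL cell and its log2 fold was -0.32 without dividing cells. Cd74 was at 240 against 466 CPM, with 166 UMIs in 1 WT-CTRL cell. Cdc6 (22.9 against 38.7 CPM) and Chaf1b (22.3 against 36 CPM) were the 2 lower of 30 S phase genes, and the log2 fold of Cdc6 turned to 1.47 without dividing cells.

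KO-DOX against WT-DOX compared the labels under doxorubicin. Mitotic genes were higher in KO-DOX, and Gzmb, Il10 and 3 p53 targets were lower. Of all genes 137 (2.68%) passed the fold upwards and 161 (3.15%) downwards.

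Of 35 G2 and M phase genes, 11 were higher and 0 lower (median 0.31), among them Ube2c at 296 against 143 CPM and Bub1b at 39.3 against 18.2 CPM. The comparison cells had 18 higher and a median of 0.60. WT-DOX was the lowest of the 4 libraries for Bub1b (38.7, 18.2, 37 and 39.3 CPM) and for Ube2c (215, 143, 257 and 296 CPM). With effector-rich and effector-poor cells given equal weight 1 of 28 passed the fold, where 262 of 5077 genes passed upwards and 254 downwards. Without dividing cells 0 of 7 passed. Mki67 and Top2a, which pick out the dividing cells, are list members, so that last count is no evidence on the list. The p53 list had 3 of 22 lower and 0 higher (median -0.27, against 0.05 in the comparison cells). Cdkn1a was at 51 against 111 CPM, a ratio of 0.461 (0.333 to 0.632), and Ddb2, a DNA damage sensor gene, at 22.6 against 46.3 CPM.

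Gzmb stood at 126 against 296 CPM, a ratio of 0.424 (0.347 to 0.516), so both KO libraries lay under both WT libraries for Gzmb. Il10 was at 59.4 against 90.8 CPM, and with each cell given the same weight its log2 fold turned from -0.60 to 0.10. Itgb8 was at 36.8 against 61.7 CPM and Tnf at 44.3 against 88 CPM. T cell receptor induced genes were lower in 2 of 16, Egr1 (32.6 against 74.4 CPM) and Nr4a3 (77 against 129 CPM). Vsir was at 33.5 against 66.3 CPM. S1pr1 was higher, at 150 against 88.9 CPM, and so was the mitochondrial chaperone gene Hspd1, at 654 against 400 CPM. Nkg7 stood at 126 against 32.7 CPM, with 55 UMIs in 1 KO-DOX cell, and at 60.3 against 15.1 CPM in the comparison cells. None of 22 identity genes passed the fold in this comparison or in KO-DOX against KO-CTRL. In the comparison cells 5 of the 22 were higher in KO-DOX than in WT-DOX (median 0.31, against -0.14 in the Foxp3-positive cells). Of 24 effector genes 9 were higher in the comparison cells (median 0.47), while 0 were higher and 2 lower in the Foxp3-positive cells (median -0.07).

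**Figure D5:**
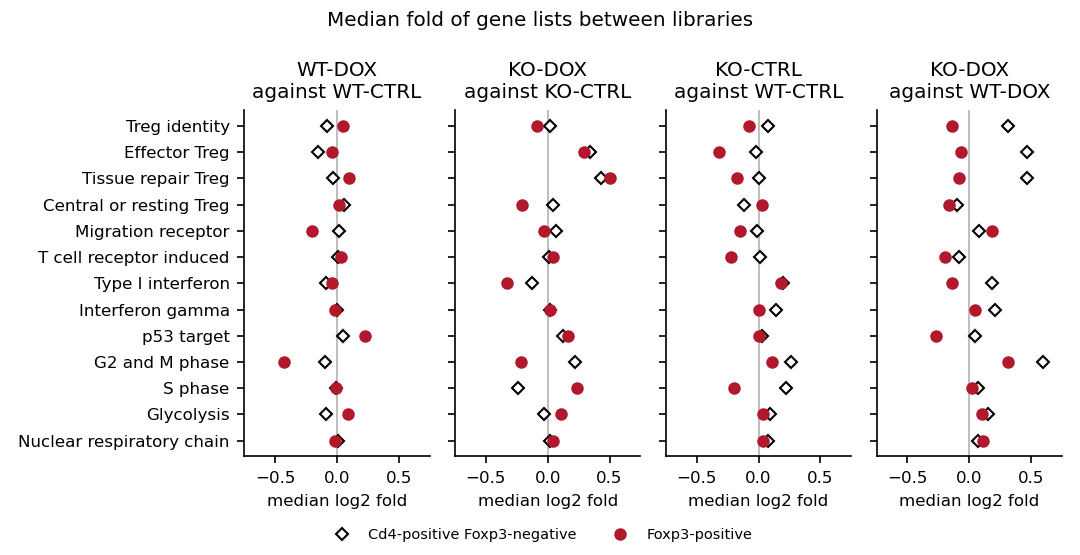
Median log2 fold of 13 gene lists in each comparison between libraries, filled circles for Foxp3-positive cells and open diamonds for Cd4-positive Foxp3-negative cells. The identity list stays between -0.14 and 0.05 in the Foxp3-positive cells, the effector list is lowest in KO-CTRL against WT-CTRL (-0.32), and the G2 and M phase list lies at -0.43 in WT-DOX against WT-CTRL.

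Some large differences between libraries appeared alike in the comparison cells and are not particular to Tregs. Zbed5 had no UMI in WT-CTRL but 369 CPM in WT-DOX, with 0.637 and 0.837 CPM in the knockout libraries, and stood at 1.13, 272, 0.328 and 0.822 CPM in the comparison cells. Rps27rt, a near copy of Rps27 whose counts may be shared with it, was at 213, 98, 150 and 126 CPM and at 439, 209, 297 and 251 CPM in the comparison cells. Ehbp1 (11.5, 39.9, 38.9 and 57.7 CPM) and Cdk5rap1 (12.2, 33.6, 32.5 and 51.9 CPM) were lowest in WT-CTRL, as they were in the comparison cells (25.3 to 84.8 and 11.6 to 47.3 CPM). Other genes passed the fold in the Foxp3-positive cells and not in the comparison cells: Dnph1 (19.7, 49.9, 31.2 and 49.4 CPM, against 7.73 to 11.8 CPM), Tex14 (37.4, 38.1, 43.3 and 11.7 CPM, against 33.7 to 39.4 CPM) and Ankrd55 (42.1, 49.9, 43.3 and 20.9 CPM, against 6.45 to 7.76 CPM). Whether the libraries differ more in Tregs than in other CD4 cells was not tested for any gene.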

How the data were processed

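The deposited matrices give UMI counts by gene and barcode. The submitters' processing notes name mm10 as a genome build. The library kit was SeekOne DD Single Cell 5', per the labels' protocols. An aligner, a cell caller and an annotation are named in none of the sources used here. Groups were taken from the sample labels, with 1 library a group. The cell group, the markers and the gene lists were chosen with earlier results of these data known.

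UMIs were summed over the Foxp3-positive and over the Cd4-positive Foxp3-negative cells of each library (Python 3.11.15, numpy 2.4.6, scipy 1.17.1, pandas 2.3.3). The 8 sums were tested with edgeR 4.0.16 (R 4.3.3, limma 3.58.1) on counts of genes with a mean of at least 10 CPM, with TMM factors and the library as a block, because both sums of a pair come from 1 library. P-values measure how far the difference between the 2 cell groups varies over these 4 libraries. That difference may itself change with treatment and genotype. On counts simulated for this test, 0.0661% of 7567 unaltered genes had an edgeR adjusted p under 0.05. The simulated counts shared 1 profile over the 8 sums and followed the fitted dispersion trend, with no difference between libraries. The rate is therefore no false positive rate for the real cells. Levels between libraries are CPM of summed UMIs with a pseudocount of 1 CPM for the log2 fold and no test. Doublet scores came from Scrublet in scanpy 1.11.5, and plots from matplotlib 3.10.9. Gene positions came from GENCODE M21 (GRCm38), which holds 32158 of the 32285 gene identifiers, and promoters from RefSeq (GRCm38.p6).

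The genes named are the identity genes with at least 10 CPM, the 12 called genes with the largest difference in each direction of the edgeR test, the 6 largest in each direction of each library comparison with at least 50 UMIs in the higher library and no cell with 20% of them, and up to 2 members of each list in each direction. Some of these are not printed. Bbc3 in WT-DOX against WT-CTRL was chosen after its values were seen. Penk, Xaf1, Slfn5 and Isg15 in KO-DOX against KO-CTRL, S100a4, Ifit3, Cd274, Foxp3, the genes compared between effector-rich and effector-poor cells, and the other cells' markers fall outside that rule and were chosen after their values were seen or as checks.

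Alternatives were DESeq2 1.42.0, the fit without the block, each library left out, at least 2 Foxp3 UMIs, comparison cells without the Cd4 condition, 800 genes and 5% mitochondrial UMIs, Scrublet scores above 0.25 left out, dividing cells left out, other level filters, TMM factors, a pseudocount of 5 CPM, equal weight for each cell and the top cell of each gene left out. Added after the data were seen were the fits within effector-rich or effector-poor cells, their equal weighting, and all alternatives for the effector share.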

Additional observations from a re-analysis of the deposited data

Results flagged for a closer look

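Of 5117 genes, 12 passed 1.5-fold in opposite directions in the 2 doxorubicin comparisons of the Foxp3-positive cells. Of these 12 genes, 6 fall under the rule for named genes. Another 9 genes passed the fold upwards in both comparisons, among them Areg, Ccng1, Pdcd1 and Penk, and 6 downwards in both. The difference between the comparisons was not tested, since each rests on 1 library against 1. The log2 fold of DOX against CTRL was -0.78 for Ccr2 with the WT label and 0.59 with the KO label. It was 0.59 and -0.74 for Igfbp4, 0.59 and -1.09 for Camk1d, 1.71 and -1.22 for 9930111J21Rik2, -0.62 and 0.84 for Znrd2, and -0.68 and 0.63 for Asrgl1. Igfbp4 changed sign in both comparisons among cells with at least 2 Foxp3 UMIs (-0.29 and 1.73). Camk1d had 366 UMIs in 1 WT-DOX cell.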

How the results depend on the processing

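The library comparisons are limited by 169 to 232 cells in each sum and by 1 library a group. In the edgeR comparison with the other CD4 cells, pairing by library mattered little: without the replicate block 1010 genes were higher and 886 lower. DESeq2 called 979 and 802, and leaving out 1 library at a time gave 1008 to 1079 higher and 888 to 964 lower. Lower genes numbered 1569 with no level filter and 484 without dividing cells. Counts were 319 and 203 in effector-poor and 574 and 554 in effector-rich cells. Log2 differences changed sign for Nkg7 without the Cd4 condition (-0.18) and in effector-rich cells (-0.12), for Bcl2 without dividing cells (0.32) and in effector-poor cells (1.06), for Maf (-0.01) and Jun (0.06) in effector-poor cells, and for Nrp1 (-0.61), Cxcr3 (-0.28), Bbc3 (0.12) and Il7r (0.58) in effector-rich cells. The cause was not tested.

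Requiring 2 Foxp3 UMIs gave shares of 0.718%, 0.531%, 0.602% and 0.656% of kept barcodes (WT-CTRL, WT-DOX, KO-CTRL, KO-DOX) and 4.26%, 3.68%, 3.26% and 3.91% of CD4 cells, and put 70.7%, 71.2%, 66.7% and 82.4% of cells at or over 50% effector UMIs. Thinning gave 0.907%, 0.639%, 0.96% and 0.755% of kept barcodes with at least 1500 UMIs, and 7.95%, 6.46%, 7.88% and 6.43% of their CD4 cells. Without dividing cells the effector-rich shares were 45.8%, 44.7%, 40% and 56.5%.

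Counts of genes past the fold rose by more than 1.5 times under up to 5 settings. For WT-DOX against WT-CTRL they were 202 higher and 230 lower with equal cell weight, 427 and 377 at 10 CPM, 220 and 285 with 2 Foxp3 UMIs, 316 and 357 without dividing cells, and 194 lower with equal weight of effector-rich and effector-poor cells. For KO-DOX against KO-CTRL the same settings gave 245 and 191, 436 and 409, 250 and 260, 387 and 348, and 215 and 170. For KO-CTRL against WT-CTRL the first 4 gave 141 and 201, 312 and 356, 141 and 236, and 256 and 330. For KO-DOX against WT-DOX they gave 266 and 264, 406 and 558, 288 and 286, 399 and 427, and 262 and 254.

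With 2 Foxp3 UMIs the log2 fold changed sign for Igfbp4 in WT-DOX against WT-CTRL (-0.29), in KO-DOX against KO-CTRL (1.73) and in KO-DOX against WT-DOX (0.20), for Penk (-0.70), Xaf1 (0.33) and Slfn5 (0.27) in KO-DOX against KO-CTRL, and for Isg15 in KO-CTRL against WT-CTRL (-0.10). Without dividing cells it did so for Ccnb1 in WT-DOX against WT-CTRL (1.78) and, in KO-CTRL against WT-CTRL, for Nkg7 (-0.32), Cdc6 (1.47) and the median of the cytotoxic and NK list (-0.24). With equal cell weight Il10 changed sign in KO-DOX against WT-DOX (0.10). The cause was not tested.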
